A study of Mus musculus with 6 samples.

Results

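The 30 genes described here encode the route by which cells break down the branched-chain amino acids (BCAAs) leucine, isoleucine and valine, together with the route that carries propionyl-CoA, an end product of isoleucine and valine, into the tricarboxylic acid (TCA) cycle. They were chosen by gene symbol, as carriers, enzymes and regulators of these steps, by a rule that uses no difference between the groups, though earlier results of these data were known when the list was made. All 30 had a row among the 56884 gene IDs of each library, and all 30 passed the filter on low values that left 15426 genes to be tested. RNA-seq had been done on a mouse scWAT SVF cell line, that is, cultured stromal vascular fraction cells of subcutaneous white adipose tissue, a fraction that holds adipocyte precursors. The cells had been transduced by retrovirus to overexpress PPARγ2, the adipocyte form of the nuclear receptor that drives fat cell differentiation, with the lysine at position K382 replaced either by glutamine (K382Q, a stand-in for the acetylated lysine) or by arginine (K382R, a stand-in for the deacetylated lysine). There were 3 libraries of K382Q-overexpressing cells (K382Q cells) and 3 of K382R-overexpressing cells (K382R cells), all harvested at day 2 of beige adipocyte differentiation. Every culture had received isobutylmethylxanthine, indomethacin, dexamethasone, insulin, T3 and rosiglitazone, the last of which is itself a PPARγ agonist, and no library of cells without a mutant was among the 6. The libraries are described as biological replicates of one cell line, and the sources used here do not say whether they came from separate transductions, so the tests measure the spread between these cultures.

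The aligned length of a library was between 5.95 and 7.50 Gb in K382Q and between 6.53 and 8.15 Gb in K382R cells, and 22663 to 23837 genes had a value above 0. Levels are given as TPM, a length-corrected share of all transcripts in a library. Differences are log2 fold changes of TPM + 0.5, K382Q against K382R, from limma with Benjamini-Hochberg adjustment over all genes tested, and a gene is called higher or lower at an adjusted p under 0.05. TPM of Pparg was 1333, 1164 and 1104 in K382Q and 1590.0, 1632 and 1612 in K382R cells. Transcripts of the vector and of the cell's own gene were not separated, so TPM of Pparg cannot show which mutant a library carries. It was lower in K382Q cells, with a log2 fold change of -0.43 (SE 0.0638, adjusted p = 0.000977), and the part of this difference in the results below was not tested. Of the adipocyte markers, 9 of 10 were tested, 4 of them were higher and 4 lower in K382Q cells, and Lep was at 0 in every library. This list summed to 55033 to 58702 TPM in K382Q and 45693 to 46915 TPM in K382R cells. The largest mean of a single marker in it, over both mutants, was 42865 TPM. Of all genes tested, 11.1% were higher and 36.9% lower. Of 8 markers of adipocyte precursors or fibroblasts, the 4 tested were all lower in K382Q cells, their list summing to 463 to 509 TPM against 774 to 811 TPM in K382R cells, and Dpp4 was at 0. Among 6 leukocyte markers Adgre1 and Cd3e were at 0 in all 6 libraries, and the list summed to 3.42 to 5.18 TPM, nearly all of it Cd68. The 5 endothelial markers summed to 1.63 to 2.25 TPM and the 5 muscle markers to 7.06 to 9.33 TPM, with Myod1 and Myog at 0. Whether the differences in adipocyte and precursor markers had a part in the differences below was not tested. In such bulk RNA fewer cells of a type and less RNA per cell cannot be told apart.

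BCAAs enter the cell through carriers of the plasma membrane. In the cytosol or in mitochondria a branched-chain aminotransferase moves their amino group to α-ketoglutarate, and the mitochondrial branched-chain α-ketoacid dehydrogenase (BCKDH) complex then commits the carbon skeletons to oxidation. Separate branches take leucine to acetyl-CoA and acetoacetate, isoleucine to acetyl-CoA and propionyl-CoA, and valine to propionyl-CoA, which becomes succinyl-CoA through biotin- and cobalamin-dependent enzymes. Adipocytes use this route for fuel and as a source of carbon for fatty acids, and brown adipocytes are known to oxidize BCAAs during thermogenesis.

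In K382Q cells, 12 of the 30 genes were higher, 8 were lower and 10 were not called. Among all genes tested, 11.1% were called higher and 36.9% lower. The lower genes included 3 of the 4 plasma membrane carriers and both aminotransferases, whereas all 4 genes for the enzymes from propionyl-CoA to succinyl-CoA were higher. Most differences were small: 18 of the 20 genes called differed by less than 1.5-fold, and only Bcat1 differed by more than 2-fold, the size that made a differentially expressed gene (DEG) together with the adjusted p, where 3.88% of all genes tested were DEGs. The replicates of both mutants did not overlap for 22 of the 30 genes, and this was so for 57.0% of all genes tested. The median log2 fold change of the 30 genes was 0.09, against -0.14 for all genes tested.

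That offset of all genes matters for genes with small differences. When TPM was rescaled so that the median gene had the same level in every library (median-ratio scaling), the median of all genes tested became 0.00 and that of the 30 genes 0.24. On that scale 16 of the 30 genes were higher and 4 lower, where 19.9% of all genes tested were higher and 20.4% lower. All 12 genes called higher kept that call, and Slc43a2, Mccc1, Hibch and Mmab joined them. Of the 8 lower genes Bcat1, Slc43a1, Slc7a5 and Oxct1 kept their call, and Slc3a2, Bcat2, Acad8 and Hibadh lost it. The 12 genes called higher had log2 fold changes of 0.27 (Bckdk) to 0.61 (Mmaa) on that scale. Scaled values of single genes are given below where the call changed and for some of the larger differences. When coverage, the read depth deposited beside TPM, was used in place of TPM (an alternative added after the data were seen), 8 genes were higher and 8 lower, the calls lost being those of Bckdk, Auh, Pcca and Mcee. By coverage, 1606 of all 15426 genes tested were higher and 6259 lower.

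**Figure D1:**
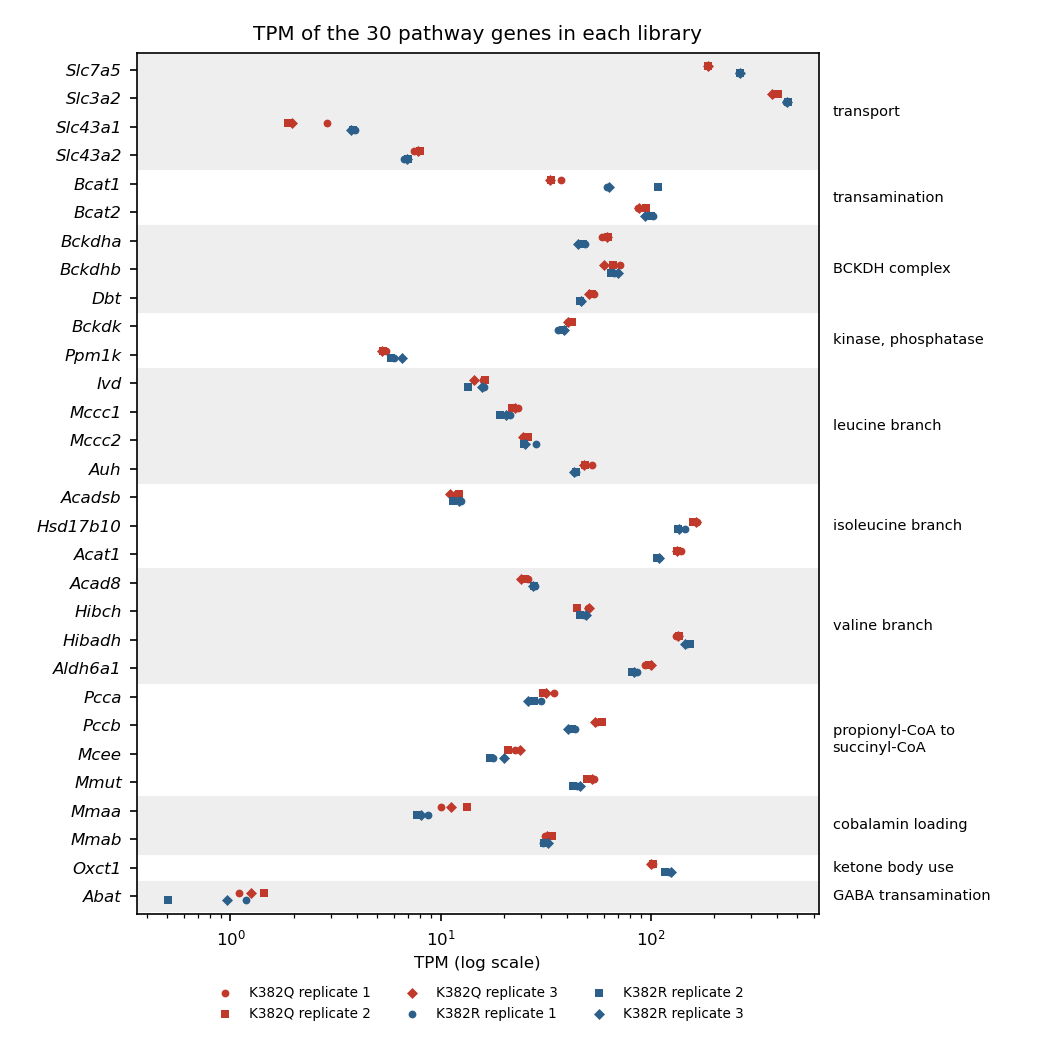
TPM (log scale) of the 30 genes in each of the 3 K382Q (red) and 3 K382R (blue) libraries, 1 marker per library, with genes grouped by their step in the pathway. For Slc7a5 and Pccb the red and blue markers stand apart, while for Pcca and Mcee they nearly touch and for Bckdhb they are mixed.

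Slc7a5 (LAT1) and Slc3a2 (4F2hc, its heavy chain) form the main exchanger that brings leucine, isoleucine and valine into many cell types. TPM of Slc7a5 was 187, 187 and 187 in K382Q and 264, 267 and 266 in K382R cells. The 3 replicates of each mutant lay within a few TPM of each other, and those of K382Q lay far below those of K382R. Its log2 fold change was -0.51 (SE 0.0248, adjusted p = 4.23e-06), a mean 1.42-fold higher in K382R cells, and -0.35 after median-ratio scaling (adjusted p = 3.38e-05). The gene lies at chr8:122607889-122634433, minus strand (GRCm39). TPM of Slc3a2 was 381, 404 and 379.9 in K382Q and 443, 451 and 445 in K382R cells. It was lower without overlap, with a log2 fold change of -0.20 (SE 0.0316, adjusted p = 0.00127), but of -0.05 after median-ratio scaling, where it was no longer called (adjusted p = 0.310). The ratio of Slc7a5 to Slc3a2 within a library, which does not depend on how libraries are scaled, was 0.482 ± 0.0163 in K382Q and 0.595 ± 0.00174 in K382R cells (SD, n = 3), without overlap between the mutants. By coverage the same ratio was 2.99 ± 0.0851 in K382Q and 3.71 ± 0.0232 in K382R cells, so which of the partners had the higher level depends on the measure, while the log2 difference between the mutants was -0.31 by TPM and -0.31 by coverage.

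Slc43a1 (LAT3) and Slc43a2 (LAT4) encode transporters that move large neutral amino acids along their gradient without exchange. Slc43a1 had a TPM of 2.88, 1.87 and 1.96 in K382Q and 3.91, 3.83 and 3.73 in K382R cells. The 3 K382R libraries were close together, and the 3 K382Q libraries were all below them but spread more widely. The difference on the log2 scale was -0.68 (SE 0.153, adjusted p = 0.00755), and -0.55 after median-ratio scaling (adjusted p = 0.0214). The gene lies at chr2:84669194-84693938, plus strand (GRCm39). For Slc43a2 every K382Q library exceeded every K382R library, at 7.75 ± 0.237 in K382Q and 6.85 ± 0.139 in K382R cells (SD, n = 3). This gene was not called on TPM (log2 fold change 0.17, adjusted p = 0.0831) and was called higher after median-ratio scaling (0.31, adjusted p = 0.00953). By coverage it was not called, with a log2 fold change of 0.04 (adjusted p = 0.708), or of 0.20 (adjusted p = 0.113) with median-ratio scaling as well, and per aligned Gb the mutants overlapped.

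The branched-chain aminotransferases are encoded by Bcat1 (cytosolic) and Bcat2 (mitochondrial), the latter being the form usually named for adipose tissue. Bcat1 showed the largest difference of the 30 genes. Its TPM was 37.5, 33.5 and 33.3 in K382Q and 61.9, 108 and 63.3 in K382R cells. All K382Q libraries lay below all K382R libraries, and replicate 2 of K382R lay far above the other two. The log2 fold change was -1.10 (SE 0.196, adjusted p = 0.00240), a mean 2.24-fold higher in K382R cells, and -0.95 after median-ratio scaling (adjusted p = 0.00653). Without K382R replicate 2 it was -0.84 and below the 2-fold threshold, and it kept its call in every alternative tried. Bcat1 spans chr6:144939561-145021910, minus strand (GRCm39). TPM of Bcat2 was 87.3, 94.8 and 87.6 in K382Q and 102, 101 and 94.0 in K382R cells, and these ranges overlapped. Its log2 fold change of -0.14 (SE 0.0477, adjusted p = 0.0431) became 0.01 after median-ratio scaling (adjusted p = 0.864), and its call was also lost without K382Q replicate 1 or 3 or K382R replicate 1 or 2 (log2 fold change -0.12 to -0.13).

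The deposited tables also hold the coverage, the average number of reads over each base of a gene, and for Bcat1 it did not set K382R replicate 2 apart. Per Gb of aligned sequence, the depth of Bcat1 was 5.50, 5.12 and 5.24 in K382Q and 10.1, 10.2 and 9.96 in K382R cells, so that the 3 K382R libraries nearly coincided. In K382R replicate 2 this depth was 0.241 of what the FPKM of Bcat1 implies, against 0.356 to 0.421 in the other 5 libraries, and the cause was not tested. The ratio of Bcat1 to Bcat2 within a library was 0.429, 0.353 and 0.380 in K382Q and 0.606, 1.07 and 0.673 in K382R cells by TPM. By coverage the same ratio was 0.635, 0.548 and 0.609 in K382Q and 1.06, 1.08 and 1.07 in K382R cells. Both measures gave a lower share of Bcat1 in K382Q cells, with a log2 difference of -0.97 by TPM and -0.84 by coverage, and the 2.24-fold mean difference in TPM rests in part on 1 library.

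**Figure D2:**
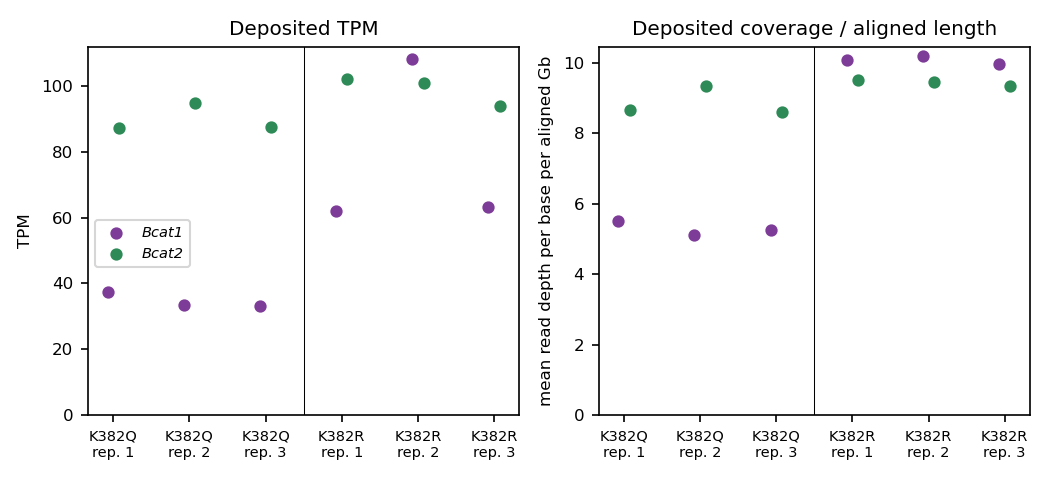
Bcat1 (purple) and Bcat2 (green) in each library as deposited TPM (left) and as deposited coverage divided by the aligned length of the library in Gb (right). In TPM the K382R replicate 2 stands at 108 for Bcat1 against 61.9 and 63.3 in the other K382R libraries, while by coverage the 3 K382R libraries lie side by side and above all K382Q libraries.

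Since Bcat1 differed most, the 250 bases before each of its RefSeq starts are shown (GRCm38.p6, an older build than that of the gene coordinates above). Each reads 5′ to 3′ in the direction of the gene. Capitals mark the letters of a PPAR half-site (AGGTCA) or a CCAAT box, on either strand.
Bcat1, chr6:145076158-145076407, minus strand: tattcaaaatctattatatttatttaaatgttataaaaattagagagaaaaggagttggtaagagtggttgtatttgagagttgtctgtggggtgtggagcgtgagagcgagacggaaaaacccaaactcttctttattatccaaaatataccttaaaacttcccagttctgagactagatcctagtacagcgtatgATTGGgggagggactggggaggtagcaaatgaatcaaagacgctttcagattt
Bcat1, chr6:145048813-145049062, minus strand: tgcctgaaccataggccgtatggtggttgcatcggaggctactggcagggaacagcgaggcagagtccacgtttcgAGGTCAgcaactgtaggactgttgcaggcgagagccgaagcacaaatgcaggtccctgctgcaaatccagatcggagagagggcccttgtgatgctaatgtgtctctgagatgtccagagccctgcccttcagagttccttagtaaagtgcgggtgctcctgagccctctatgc

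The BCKDH complex consists of the E1α and E1β subunits of the decarboxylase (Bckdha, Bckdhb) and the E2 core (Dbt), with an E3 subunit that other dehydrogenases share. TPM of Bckdha was 58.7, 62.6 and 62.1 in K382Q and 48.5, 47.8 and 45.1 in K382R cells, higher in all K382Q libraries, with a log2 fold change of 0.37 (SE 0.0442, adjusted p = 0.000310). TPM of Dbt was 53.6, 52.4 and 51.0 in K382Q and 46.6, 46.3 and 46.6 in K382R cells. Dbt too was higher without overlap, by 0.17 on the log2 scale (SE 0.0354, adjusted p = 0.00551). TPM of Bckdhb was 71.2, 65.9 and 59.8 in K382Q and 66.9, 64.9 and 69.8 in K382R cells, where the libraries of the mutants were intermingled. Its log2 fold change was -0.04 (SE 0.0639, adjusted p = 0.676) and 0.12 after median-ratio scaling (adjusted p = 0.166). The ratio of Bckdha to Bckdhb was 0.938 ± 0.108 in K382Q and 0.703 ± 0.0491 in K382R cells (SD, n = 3), and that of Dbt to Bckdhb was 0.800 ± 0.0501 in K382Q and 0.693 ± 0.0228 in K382R cells.

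Which of these subunits was the most abundant could not be read from the tables. The coverage of Bckdha matched its FPKM, whereas that of Bckdhb was only 0.03 of the depth its FPKM implies. By coverage Bckdha therefore stood at a mean 34.1 times the depth of Bckdhb in K382Q cells and 25.7 times in K382R cells, while by TPM the genes were close to each other. The log2 difference of their ratio between the mutants was nearly the same on both measures, 0.41 by TPM and 0.41 by coverage. The cause of the gap between the measures was not tested, and levels of different genes are not ranked here.

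The complex is switched off by phosphorylation of E1α by BCKDH kinase (Bckdk) and switched on again by the mitochondrial phosphatase PP2Cm (Ppm1k). TPM of Bckdk was 40.5, 42.3 and 40.5 in K382Q and 36.2, 38.1 and 38.8 in K382R cells, higher in the former by a narrow margin without overlap. On the log2 scale the difference was 0.12 (SE 0.0431, adjusted p = 0.0467). This call was lost whichever of the 6 libraries was left out. The log2 fold change was then 0.09 to 0.14, with an adjusted p between 0.0555 and 0.150. After median-ratio scaling the call was kept (0.27, adjusted p = 0.00189). TPM of Ppm1k was 5.51, 5.35 and 5.25 in K382Q and 5.99, 5.81 and 6.56 in K382R cells. All K382Q libraries were below all K382R libraries, but the log2 fold change of -0.17 was not called (SE 0.0826, adjusted p = 0.124). The ratio of kinase to phosphatase transcripts was 7.35, 7.92 and 7.71 in K382Q and 6.04, 6.56 and 5.90 in K382R cells, a log2 difference of 0.31.

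**Figure D3:**
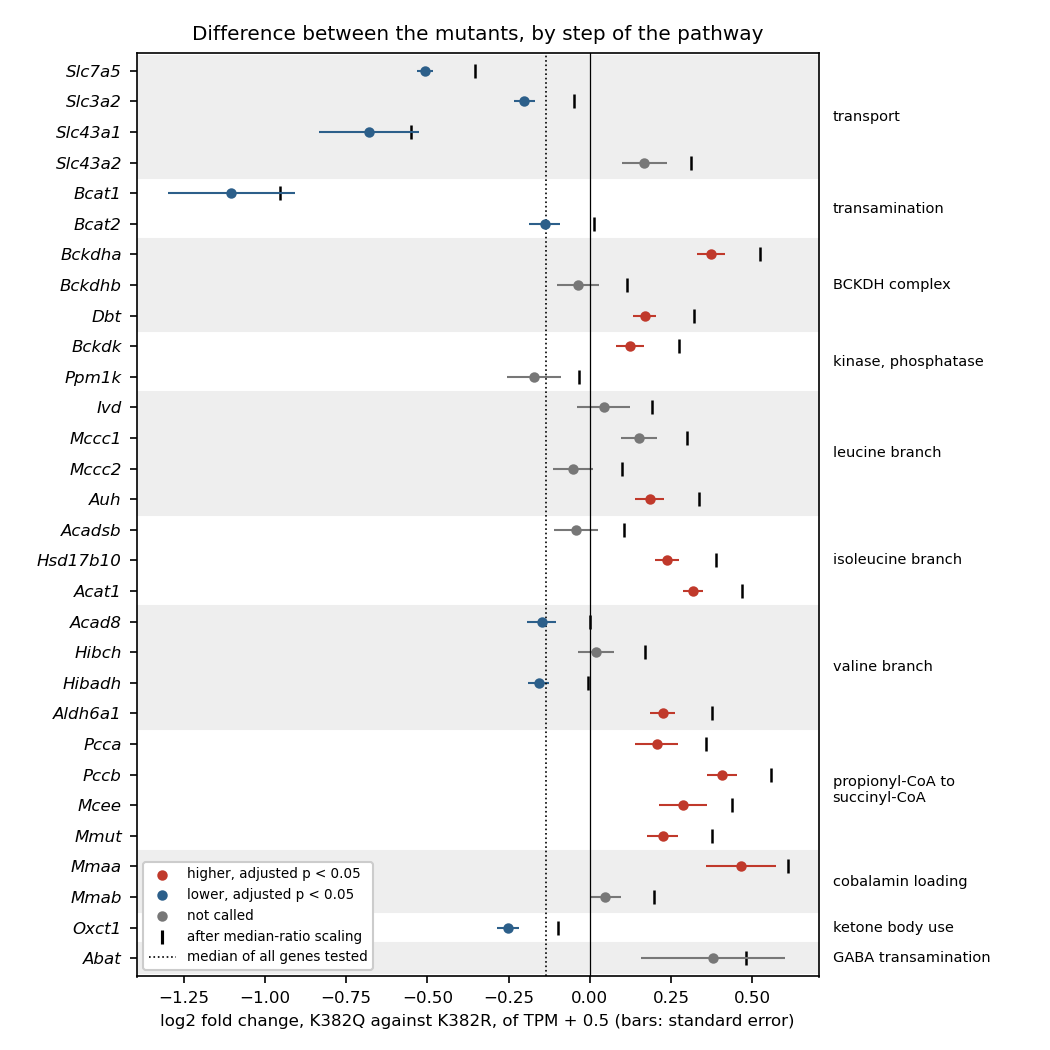
Log2 fold change of TPM + 0.5 (points, with standard error) for each gene by pathway step, red if higher and blue if lower in K382Q cells at an adjusted p under 0.05, grey if not called. The black ticks give the same genes after median-ratio scaling and lie to the right of the points, by about as much as the dotted line, the median of all genes tested at -0.14, lies left of 0.

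In the leucine branch, 1 of the 4 genes was called. Auh, the methylglutaconyl-CoA hydratase, was higher at 49.9 ± 2.49 in K382Q and 43.8 ± 0.444 in K382R cells (SD, n = 3), a log2 fold change of 0.18 (SE 0.0443, adjusted p = 0.0103), a call that was lost when coverage was used in place of TPM (log2 fold change 0.12, adjusted p = 0.155). Ivd, the isovaleryl-CoA dehydrogenase, stood at 15.6 ± 0.997 in K382Q and 15.1 ± 1.39 in K382R cells, with a log2 fold change of 0.04 (adjusted p = 0.709). Mccc1 and Mccc2 encode the biotin-bearing and the catalytic subunit of methylcrotonyl-CoA carboxylase. TPM of Mccc1 was 23.4, 21.9 and 22.6 in K382Q and 21.3, 19.2 and 20.5 in K382R cells, without overlap, and its log2 fold change of 0.15 just missed the threshold (SE 0.0553, adjusted p = 0.0564), while after median-ratio scaling it was called higher (0.30, adjusted p = 0.00317). TPM of Mccc2 was 24.8, 26.1 and 24.7 in K382Q and 28.4, 25.0 and 25.1 in K382R cells, which overlapped, with a log2 fold change of -0.05 (SE 0.0613, adjusted p = 0.531). The ratio of Mccc1 to Mccc2 was 0.899 ± 0.0539 in K382Q and 0.779 ± 0.0341 in K382R cells (SD, n = 3). By coverage it was 0.276 ± 0.0161 in K382Q and 0.239 ± 0.0127 in K382R cells, so the level of this ratio too depends on the measure. The log2 difference between the mutants was 0.21 on both.

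In the isoleucine branch, 2 of the 3 genes were higher. Acat1, the mitochondrial thiolase that releases acetyl-CoA and propionyl-CoA, was at 135 ± 3.18 in K382Q and 108 ± 1.47 in K382R cells (SD, n = 3), its log2 fold change being 0.32 (SE 0.0310, adjusted p = 0.000116). Hsd17b10, the dehydrogenase one step before it, was at 164 ± 4.18 in K382Q and 139 ± 5.29 in K382R cells, with a log2 fold change of 0.24 (SE 0.0375, adjusted p = 0.00135). For both, every K382Q library exceeded every K382R library. Acadsb, which opens the branch as short/branched-chain acyl-CoA dehydrogenase, was not called, at 11.7 ± 0.626 in K382Q and 12.1 ± 0.533 in K382R cells and a log2 fold change of -0.04 (adjusted p = 0.640).

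The valine branch was mixed. Acad8, the isobutyryl-CoA dehydrogenase, was lower at 25.1 ± 0.899 in K382Q and 27.9 ± 0.359 in K382R cells (SD, n = 3), its log2 fold change being -0.15 (adjusted p = 0.0271). That call was lost when any library other than K382Q replicate 1 was left out (log2 fold change -0.16 to -0.12), and after median-ratio scaling the value was 0.0012 (adjusted p = 0.986). Hibch, which frees hydroxyisobutyrate from CoA, was not called at 48.6 ± 3.33 in K382Q and 47.9 ± 1.67 in K382R cells and a log2 fold change of 0.02 (adjusted p = 0.812), though it was called higher after median-ratio scaling (0.17, adjusted p = 0.0384). Hibadh, the dehydrogenase of 3-hydroxyisobutyrate, a valine product that cells can release, was lower at 134 ± 2.28 in K382Q and 149.6 ± 3.69 in K382R cells, with a log2 fold change of -0.16 (SE 0.0314, adjusted p = 0.00430) that became -0.01 after median-ratio scaling (adjusted p = 0.921). Aldh6a1, which makes propionyl-CoA from methylmalonate semialdehyde at the end of the branch, was higher at 97.7 ± 3.42 in K382Q and 83.6 ± 2.55 in K382R cells, with a log2 fold change of 0.22 (SE 0.0393, adjusted p = 0.00228).

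From propionyl-CoA to succinyl-CoA all 4 genes were higher in K382Q cells, each without overlap of the replicates. Pcca and Pccb encode the α subunit (with biotin) and the β subunit of propionyl-CoA carboxylase. TPM of Pccb was 55.6, 58.4 and 54.3 in K382Q and 43.7, 42.4 and 40.6 in K382R cells, with the 2 sets far apart. Its log2 fold change was 0.41 (SE 0.0450, adjusted p = 0.000223), and 0.56 after median-ratio scaling. TPM of Pcca was 34.6, 30.8 and 31.9 in K382Q and 30.2, 27.9 and 26.2 in K382R cells, and here the lowest K382Q library lay just above the highest K382R library. This was a log2 fold change of 0.21 (SE 0.0667, adjusted p = 0.0358). The Pcca call was lost without K382Q replicate 1 or 3 or K382R replicate 2 or 3, with log2 fold changes of 0.16, 0.22, 0.20 and 0.16, in that order, and by coverage (0.18, adjusted p = 0.0916). The ratio of Pcca to Pccb was 0.579 ± 0.0479 in K382Q and 0.665 ± 0.0240 in K382R cells (SD, n = 3), without overlap. By coverage it was 0.114 ± 0.00913 in K382Q and 0.133 ± 0.00195 in K382R cells, so its level depends on the measure. The log2 difference between the mutants was -0.20 by TPM and -0.23 by coverage. Pccb lies at chr9:100864085-100916951, minus strand, and Pcca at chr14:122771736-123128512, plus strand (GRCm39).

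The next steps are taken by Mcee, the methylmalonyl-CoA epimerase, and Mmut, the cobalamin-dependent methylmalonyl-CoA mutase. TPM of Mcee ranged from 21.0 to 23.9 in K382Q and 17.2 to 20.0 in K382R cells, a log2 fold change of 0.29 (SE 0.0737, adjusted p = 0.0139), and that of Mmut from 49.8 to 53.7 in K382Q and 42.6 to 46.4 in K382R cells, a log2 fold change of 0.22 (SE 0.0473, adjusted p = 0.00567). The Mcee call was narrowly lost by coverage (log2 fold change 0.25, adjusted p = 0.0510). Mmaa, a GTPase that guards the loading of cobalamin onto the mutase, was also higher. Its TPM ranged from 10.0 to 13.3 in K382Q and 7.74 to 8.73 in K382R cells, the K382Q libraries being more widely spread, and its log2 fold change was 0.46 (SE 0.107, adjusted p = 0.00846), a mean 1.41-fold. Mmab, the adenosyltransferase that makes the active cofactor, was at 32.5 ± 1.29 in K382Q and 31.4 ± 1.03 in K382R cells (SD, n = 3) and was not called on TPM, with a log2 fold change of 0.05 (adjusted p = 0.453). It was called higher after median-ratio scaling (0.20, adjusted p = 0.0147).

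As the subunit genes of propionyl-CoA carboxylase were higher together, the 250 bases before their RefSeq starts are shown, marked as for Bcat1 (GRCm38.p6). The Pccb stretch holds neither set of letters, and both Pcca stretches hold a CCAAT box. The Pcca stretch at chr14:122484115-122484364 also holds the letters of a PPAR half-site, read on the other strand as TGACCT.
Pccb, chr9:101034885-101035134, minus strand: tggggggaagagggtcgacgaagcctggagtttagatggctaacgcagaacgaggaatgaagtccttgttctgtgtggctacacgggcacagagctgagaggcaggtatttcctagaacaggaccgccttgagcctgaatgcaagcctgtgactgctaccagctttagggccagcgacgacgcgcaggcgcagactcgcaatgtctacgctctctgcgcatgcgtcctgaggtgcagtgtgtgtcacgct
Pcca, chr14:122484115-122484364, plus strand: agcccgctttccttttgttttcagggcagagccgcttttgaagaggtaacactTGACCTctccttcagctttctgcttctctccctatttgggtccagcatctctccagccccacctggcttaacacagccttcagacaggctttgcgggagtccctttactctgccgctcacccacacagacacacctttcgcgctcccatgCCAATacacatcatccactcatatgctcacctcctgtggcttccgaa
Pcca, chr14:122534078-122534327, plus strand: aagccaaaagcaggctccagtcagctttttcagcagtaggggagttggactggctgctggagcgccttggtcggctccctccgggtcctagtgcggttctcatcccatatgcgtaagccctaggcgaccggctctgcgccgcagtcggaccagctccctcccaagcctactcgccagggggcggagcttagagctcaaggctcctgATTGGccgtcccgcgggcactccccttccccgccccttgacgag

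RefSeq windows of 300 bases, from 250 before to 50 after a start, were found for 25 of the 30 genes, 32 windows in all. A CCAAT box (CCAAT on either strand) was present in 62.5% of these, against 37.4% of the 32851 windows of all genes. The PPAR half-site letters AGGTCA, on either strand, were in 21.9% against 16.3%. The core of the amino acid response element, TTGCATCA, and the ERR element, TCAAGGTCA (which holds AGGTCA within it), were in 0 of the 32 windows, against 0.895% and 0.423% of all windows. For elements this rare among all windows, 0 of 32 cannot show a lower share in these genes. All of these counts are matches of letters and were compared by no test.

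Oxct1 and Abat stand at the edges of the pathway. Oxct1, the enzyme that activates ketone bodies for oxidation, was lower, at 102 ± 1.05 in K382Q and 121 ± 4.05 in K382R cells (SD, n = 3), without overlap. Its log2 fold change was -0.25 (SE 0.0341, adjusted p = 0.000605), and after median-ratio scaling it was -0.10, close to the threshold (adjusted p = 0.0483). Abat, the transaminase of GABA and β-alanine, had a TPM of 1.10 to 1.44 in K382Q and 0.501 to 1.18 in K382R cells. The libraries overlapped, and its log2 fold change of 0.38 was not called (SE 0.223, adjusted p = 0.203). That value depended on single libraries, being 0.16 without K382R replicate 2 and 0.54 without K382R replicate 1, and it was called in neither case.

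All 7 ratios between partner genes separated the mutants without overlap: Bcat1 to Bcat2, Slc7a5 to Slc3a2 and Pcca to Pccb were lower in K382Q cells, and Bckdk to Ppm1k, Bckdha to Bckdhb, Dbt to Bckdhb and Mccc1 to Mccc2 were higher. In the two-sided exact permutation test each had p = 0.1, also after Benjamini-Hochberg adjustment over the 7 ratios, which is the smallest p that 3 against 3 libraries allow. None could therefore pass 0.05. The share of all gene pairs whose ratio separates the mutants was not computed, 57.0% of single genes do so, and the ratios of Bckdha and of Dbt share Bckdhb, so the count is a description only.

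**Figure D4:**
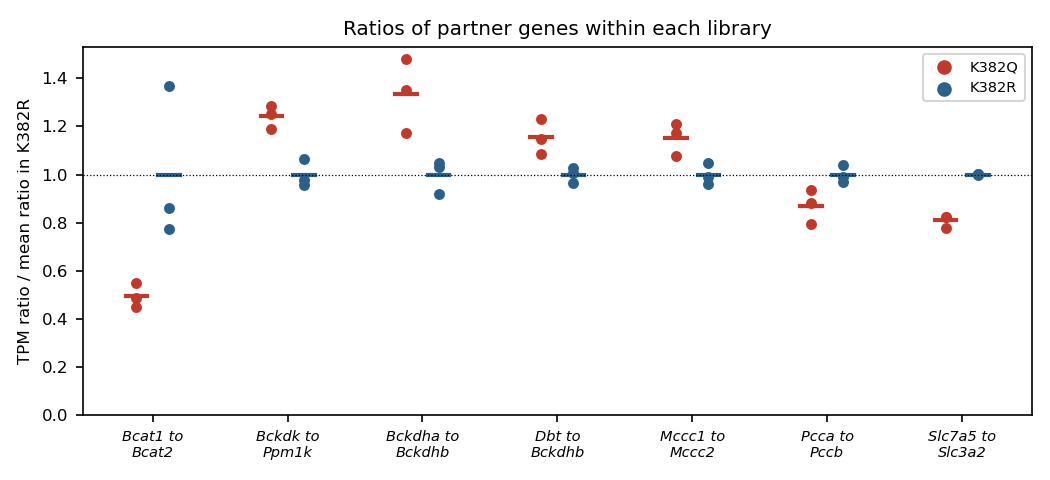
Ratio of the TPM of partner genes within each library, divided by the mean ratio in K382R cells, for 3 K382Q (red) and 3 K382R (blue) libraries, with bars at the mean of each group. No pair of groups overlaps, the widest spread is that of Bcat1 to Bcat2 in K382R cells, and Slc7a5 to Slc3a2 is the tightest.

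A further 28 genes act around these, and 25 of them were tested (Slc6a15, Bdh1 and Agxt2 were below the filter). In K382Q cells 9 of the 25 were higher and 4 lower, with a median log2 fold change of 0.05, and after median-ratio scaling 14 were higher and 3 lower. Of the 4 further amino acid carriers tested 3 were lower, and after median-ratio scaling 2 were, the call of Slc25a44, the mitochondrial BCAA carrier, being lost (log2 fold change -0.22 on TPM and -0.07 after scaling, adjusted p = 0.106). The largest difference was that of Slc7a8 (LAT2, another partner of Slc3a2), at 2.01, 1.80 and 2.12 TPM in K382Q and 5.63, 5.79 and 5.70 TPM in K382R cells, a log2 fold change of -1.33 (SE 0.0998, adjusted p = 3.19e-05), a DEG. Slc7a6 (y+LAT2) followed at -0.74 (SE 0.0483, adjusted p = 1.56e-05). Klf15, a transcription factor known to induce BCAA catabolic genes, was higher at 16.9 ± 0.705 in K382Q and 9.94 ± 0.915 in K382R cells (SD, n = 3), its log2 fold change being 0.74 (SE 0.0779, adjusted p = 0.000171). Cd320, the receptor that takes up cobalamin bound to transcobalamin, was lower, with a log2 fold change of -0.51 (SE 0.0653, adjusted p = 0.000462). These 4 kept their direction and call after median-ratio scaling.

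Genes of other mitochondrial routes are set beside the 30 for comparison, with no test between lists. Of 13 TCA cycle genes 8 were higher and 1 (Idh3a, named after its value was seen) lower, with a median log2 fold change of 0.13. Of 14 genes of mitochondrial fatty acid oxidation 12 were higher and 1 (Cpt1a, likewise named afterwards) lower, with a median of 0.21, the largest being Cpt1b, the muscle-type carnitine palmitoyltransferase, at 1.76 (SE 0.219, adjusted p = 0.000387). After median-ratio scaling 11 TCA cycle genes were higher and 0 lower, the call of Idh3a being lost, and 12 genes of fatty acid oxidation were higher and 1 lower. The medians were then 0.28, 0.37 and, for the 30 genes, 0.24. The 30 genes include the 4 plasma membrane carriers and cytosolic Bcat1, which are not mitochondrial. Of these 5 genes, 0 were higher and 4 lower, with a median of -0.51 on TPM and -0.35 after median-ratio scaling. Of the 25 mitochondrial genes, 12 were higher and 4 lower, with a median of 0.15 on TPM. After median-ratio scaling 15 of the 25 were higher and 1 lower, with a median of 0.30.

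**Figure D5:**
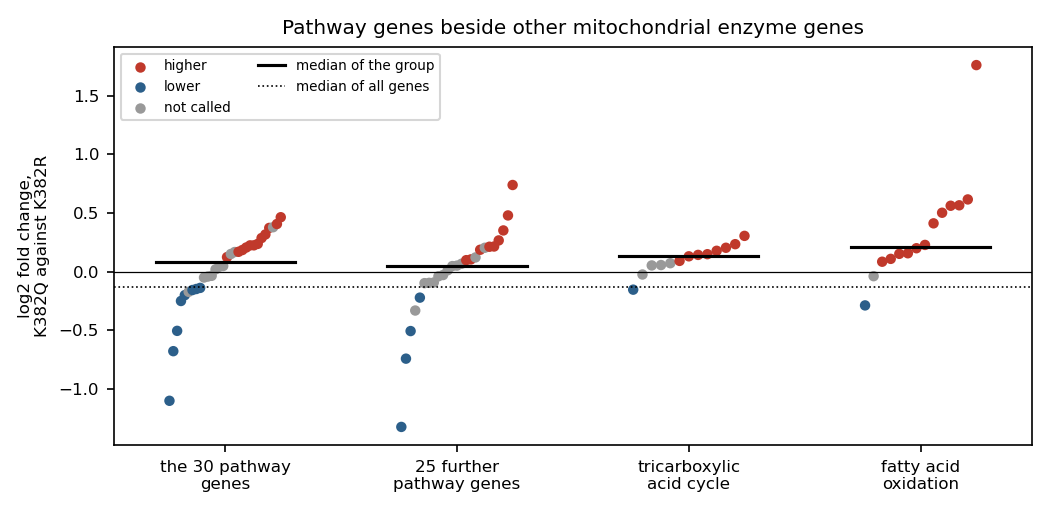
Log2 fold change (K382Q against K382R) of each of the 30 genes, 25 further pathway genes, 13 TCA cycle genes and 14 fatty acid oxidation genes, coloured by call, with the median of each list as a bar and that of all genes tested as a dotted line. All 4 medians lie above the dotted line, and the 3 lowest points are Bcat1, Slc43a1 and Slc7a5 in the first list and Slc7a8, Slc7a6 and Cd320 in the second.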

How the data were processed

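RNA-seq libraries of K382Q and K382R cells (3 each, groups from the sample labels) were analysed from the deposited StringTie gene tables. According to the methods and the submitters' processing notes, the authors trimmed paired-end reads, used HISAT2 for alignment to GRCm39 and StringTie for gene abundance; the annotation release is not given in the sources used here. The deposited coverage is the mean read depth per base without normalization. The deposited FPKM is the authors' abundance per gene length and library total, which in genes with 1 transcript is proportional to coverage and in most of the 30 genes was above what coverage implies; the deposited TPM has an equal sum in all libraries, so it gives shares and not amounts. A gene ID listed more than once (3 to 5 entries per library) had its values summed. Aligned length came from the ratio of coverage to FPKM of 1299 to 1328 genes with 1 transcript. Read counts were not analysed here, so precision is that of 3 replicates and no counting interval is given.

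Genes that reached 0.5 TPM in 3 or more of the 6 libraries were tested with limma 3.58.1 (R 4.3.3, trend by intensity) after adding 0.5 to TPM and taking log2, which makes the change of low genes look smaller. Ratios used an exact permutation test (scipy 1.17.1). Scripts were tested on simulated data. No 2 libraries shared more than 0.0117% of values. The 30 genes and all lists were chosen with earlier results of these data known. Every one of the 30 is named; values in every library are given for partner genes and for those of the 30 called with an absolute log2 fold change of at least 0.5. At most 4 others per list with the largest calls are named, mostly by fold change. One marker gene is not reported here. Promoters came from RefSeq (GRCm38.p6), and no coordinate was converted. Alternatives were pseudocounts of 1 and 0.1, no filter or 1 TPM as the minimum, FPKM, median-ratio or quantile scaling, no trend, array weights, a replicate block, a fold of 1.5, and each library left out; coverage, with and without median-ratio scaling, was added after the data were seen.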

Additional observations from a re-analysis of the deposited data

How the results depend on the processing

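Of the 540 values of the 30 genes under 18 alternatives, 464 kept their direction and their side of the threshold. With the direction kept, 39 lost their call and 14 gained one, and 23 values changed sign. The values of Bcat2 and Acad8 that changed sign also lost their call and are counted only among the 23. In all 18 alternatives 12 genes were called in the same direction: Slc7a5, Slc43a1, Bcat1, Bckdha, Dbt, Hsd17b10, Acat1, Aldh6a1, Pccb, Mmut, Mmaa and Oxct1.

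The number of lower genes, 8, became 5 with FPKM, 4 with median-ratio scaling, 5 with quantile normalization and 4 with coverage and median-ratio scaling, an alternative added after the data were seen. Among all 15426 genes tested the lower calls also fell, from 5698 to 4135, 3143, 3241 and 3278, in that order. The only gene over 2-fold, Bcat1, was no longer so with median-ratio scaling, quantile normalization or coverage with median-ratio scaling (0 genes each). At a fold of 1.5 there were 2, against 1864 of all 15426 genes tested. Higher genes of the further pathway list rose from 9 to 14 with either median-ratio scaling or quantile normalization. Over all genes tested the higher calls rose as well, from 1717 to 3069 and 2954, in that order. With a library left out, 10 to 11 of the 30 genes were higher, 6 to 7 lower and 0 to 1 over 2-fold, the 0 being without K382R replicate 2. In those fits 1443 to 1546 of all 15426 genes tested were higher and 4939 to 5511 lower.

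Values that changed sign were all small and none was called. With FPKM, the log2 fold changes were 0.0469 for Bckdhb, 0.0306 for Mccc2 and 0.0361 for Acadsb. With median-ratio scaling they were 0.0127 for Bcat2, 0.116 for Bckdhb, 0.0989 for Mccc2, 0.104 for Acadsb and 0.00119 for Acad8. With quantile normalization they were 0.00308 for Bcat2, 0.123 for Bckdhb, 0.110 for Mccc2, 0.105 for Acadsb and 0.0147 for Acad8. With coverage and median-ratio scaling they were 0.106 for Bckdhb, 0.0999 for Mccc2, 0.0703 for Acadsb and 0.0324 for Acad8. With a library left out, Bckdhb ranged from -0.0962 to 0.0286, Ivd from -0.0337 to 0.0938, Mccc2 from -0.0832 to 0.00858 and Hibch from -0.0131 to 0.0762.

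The labels do not say whether libraries with the same replicate number were handled together. Their deviations from the group means correlated at -0.018, 0.051 and 0.022. No shared deviation was thus seen, which cannot show how the cultures were made. With the number as a replicate block 11 genes were higher and 8 lower, against 1600 and 5387 of all 15426 genes tested. The call of Bckdk was the one lost (log2 fold change 0.12, adjusted p = 0.0696). Each ratio keeps its value by construction, such as -0.97 for Bcat1 to Bcat2. The exact p of all 7 ratios went from 0.1 to 0.25, the smallest that 3 pairs allow. Having 3 libraries per mutant limits what can be said of Slc43a1, Abat and other genes of low level. The ratio tests cannot pass 0.05 at this size.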
